A study of Mus musculus with 267 samples.

Results

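The Egr2 locus of mouse bone marrow–derived macrophages (BMDMs) was taken as every measured region whose center lay within 100 kb of the start of Egr2 on chromosome 10. In the mm10 genome with GENCODE vM21 annotation, Egr2 (ENSMUSG00000037868.15) spans chr10:67535475-67542188 on the plus strand. It has 7 annotated transcripts, the first of which starts at 67535475, and Egr2-201 and Egr2-202 start 2.394 and 2.395 kb further down. Regions are named here by the distance of their center from 67535475, with plus for downstream. Of 77955 regions in the C57 time course of IL-4, 29 fell in this window. In the tables made separately for each strain, 27 of 67742 regions fell there for C57, 23 of 54022 for BALB, 24 of 68932 for NOD, 25 of 60175 for PWK and 22 of 54755 for SPRET. The window also held 13 of 30675 binding sites in the EGR2 time course, 3 of 4677 sites in each table comparing Egr2 genotypes, and 701 factor peaks in 54 reproducible peak lists, which merged into 56 sites. The only other protein-coding gene with its start in the window was Ado, a cysteamine dioxygenase gene on the minus strand (ENSMUSG00000057134.5, chr10:67544511-67548955), whose start lies 13.48 kb downstream of that of Egr2.

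All samples were chromatin immunoprecipitation sequencing (ChIP-seq) libraries of BMDMs, macrophages grown from bone marrow for 7 days with M-CSF. The cells came from female mice of 8 to 12 weeks according to the methods of the study. The 5 strains were SPRET/EiJ (SPRET), PWK/PhJ (PWK), NOD/ShiLtJ (NOD), BALB/cJ (BALB) and C57BL/6J (C57), untreated (basal) or given 20 ng/mL of IL-4 for 24 h, with 1 and 6 h in C57 only. A further experiment used BMDMs of Egr2 fl/fl mice and of LyzM-Cre Egr2 fl/fl mice, basal and after 24 h of IL-4. LyzM-Cre is a Cre recombinase driven by the lysozyme M gene of myeloid cells, and both of these groups carry the floxed allele. The floxed part of the gene is not given in the sources used here and EGR2 itself was not measured in the tables of these genotypes, so the labels of the knockout could not be checked on the targeted gene. ChIP samples were described as biological replicates, but whether each came from its own mouse is not given. In a bulk ChIP, more cells carrying a mark and more of the mark per cell cannot be told apart.

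IL-4 acts through its receptor and JAK kinases, which phosphorylate STAT6, and STAT6 then enters the nucleus and binds DNA at a palindromic site of TTC and GAA. Egr2 encodes EGR2, a zinc finger transcription factor that binds GC-rich sites, first known from hindbrain and Schwann cell development and induced in alternatively activated macrophages. Acetylation of histone H3 at lysine 27 (H3K27ac) marks active promoters and enhancers, and RNA polymerase II (Pol II) marks transcribed genes and many active enhancers. H3K4me2 and H3K4me3 mark regulatory elements and promoters, respectively. PU.1 and CEBPβ are factors that set up macrophage enhancers, and PPARγ is a lipid-responsive nuclear receptor that IL-4 induces.

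The sequences below are the matches to a STAT6 site, TTC and GAA separated by 4 bases, in C57 STAT6 peaks of 1 h IL-4 in the locus, with 10 bases on each side on the plus strand of mm10 and the match in capitals. They are shown because these are the places where a STAT6 motif and early STAT6 binding coincide. Of the 15 such peaks, 6 (40%) held a match within their central 200 bases, on either strand, against 21.1% of all 24374 peaks of this list that could be read. The match at +93.6 kb lies in the one region of the locus called for H3K27ac at every time of IL-4.
STAT6 site −41.7 kb, chr10:67493725-67493754: gagtcatcacTTCGAAGGAAaagtaaatgt
STAT6 site −16.6 kb, chr10:67518838-67518867: tccaatcagcTTCCATTGAAaatttgccaa
STAT6 site +30.9 kb, chr10:67566453-67566482: ggttatagtcTTCTAGAGAAgacggggcca
STAT6 site +59.9 kb, chr10:67595311-67595340: ttgtcatattTTCAGGAGAAaactttataa
STAT6 site +93.6 kb, chr10:67629052-67629081: tttttttcctTTCCACGGAAaacaaaaggc
STAT6 site +97.8 kb, chr10:67633244-67633273: ctgttgcttcTTCCTGTGAActcttactca

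Matches to an EGR site, GNGTGGGNG on either strand, were found in 6 of the 13 EGR2 peaks of C57 BMDMs at 24 h of IL-4 in the locus (46.2%), against 26.4% of all 29400 such peaks. They are shown 5′ to 3′ on the strand of the match, in capitals, because they mark where EGR2 was bound near its own gene. The matches at +0.0, +1.4 and +3.7 kb lie in introns of Egr2 in the annotation, and that at +12.4 kb in an exon of Ado.
EGR site +0.0 kb, chr10:67535519-67535547, plus strand: cctcccgcgcGGGTGGGTGcttcacctct
EGR site +1.4 kb, chr10:67536934-67536962, minus strand: gcggtccgctGCGTGGGGGcgaccagatg
EGR site +3.7 kb, chr10:67539228-67539256, minus strand: atggataagtGGGTGGGTGatgttcttga
EGR site +12.4 kb, chr10:67547774-67547802, minus strand: ttatgggggcGGGTGGGCGgaaggctagg
EGR site +72.3 kb, chr10:67607740-67607768, plus strand: cattctatttGTGTGGGTGgggttagtaa
EGR site +97.9 kb, chr10:67633415-67633443, plus strand: gtgtgtctggGTGTGGGTGgctgatggag

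Longer stretches are given for 2 distal regions as examples of each kind, the region at +93.7 kb, where H3K27ac and Pol II rose with IL-4, and the region at +63.2 kb, which was bound by many factors and acetylated before IL-4. Capitals mark the STAT6 match in the first. In the second they mark a CEBP match (TTNNGNAA) and then a pair of PU.1 matches (GGAAGT or its complement). Over the central 200 bases of the 29 regions, STAT6 matches were in 10.3% of members and 6.04% of all 77943 regions read, EGR in 3.45% and 8.49%, PU.1 in 31.03% and 33.1%, and CEBP in 41.4% and 36.7%. The STAT6 match shown at +93.7 kb and the CEBP match shown at +63.2 kb lie outside the central 200 bases and are not in these shares. The 200 bases before the Egr2 start held none of these 4 motifs.
+93.7 kb, chr10:67629018-67629317: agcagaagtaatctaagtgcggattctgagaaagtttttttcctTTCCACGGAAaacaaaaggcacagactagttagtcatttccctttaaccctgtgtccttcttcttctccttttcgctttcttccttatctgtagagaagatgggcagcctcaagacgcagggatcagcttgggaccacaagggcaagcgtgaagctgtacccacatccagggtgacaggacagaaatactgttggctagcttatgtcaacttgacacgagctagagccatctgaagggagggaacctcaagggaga
+63.2 kb, chr10:67598565-67598864: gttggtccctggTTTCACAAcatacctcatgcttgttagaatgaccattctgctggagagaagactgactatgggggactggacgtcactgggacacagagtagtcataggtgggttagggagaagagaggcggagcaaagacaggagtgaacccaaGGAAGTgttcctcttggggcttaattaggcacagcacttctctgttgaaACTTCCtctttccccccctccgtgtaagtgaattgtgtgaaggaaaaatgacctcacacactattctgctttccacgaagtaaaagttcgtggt

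Values below are normalized tags, the reads that the authors counted around a region's center scaled to a library of 10000000. The 155 libraries of the tag tables held between 4691644 and 29050468 tags. Some libraries stood apart by the share of their tags in regions. H3K27ac replicate 2 at 1 h of the C57 time course had 20.5%, against 44.0% in replicate 1 at 1 h and 41.2 to 69.7% in the basal, 6 h and 24 h libraries. In BALB, replicate 2 at 24 h had 28.7% for H3K27ac against 51.2 to 58.6% in the others and 14.9% for H3K4me2 against 27.9 to 34.8%, and Pol II basal replicate 3 had 17.6% against 27.8 to 39.2%. Among EGR2 libraries, replicate 1 at 1 h had 5.38% of its tags in the sites of its table and the others 10.8 to 22.03%. A region was called changed where limma gave a Benjamini-Hochberg adjusted p under 0.05 over all regions of its table. A fold rule was also used for strains, a ratio of mean tags + 1 of at least 2.5 with at least 16 tags (8 for Pol II) in either group. Promoter regions of 7 macrophage marker genes were present for 7 of 7 genes in C57, BALB, NOD and PWK and 6 of 7 in SPRET, with H3K27ac of 8.55 to 1711.68 tags. Of 16 marker genes of other cell types, 1 to 4 had a promoter region in a strain, with H3K27ac of 0 to 353.26 tags, and their part in the results was not tested.

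In C57 BMDMs, IL-4 raised H3K27ac at a few regions of the Egr2 locus, led by an intergenic region 93.7 kb downstream of the start. At +93.7 kb (chr10:67628667-67629667), H3K27ac was 35.28 and 46.35 tags in the basal libraries, 264.37 and 108.09 at 1 h, 287.25 and 297.58 at 6 h, and 360.75 and 253.33 at 24 h. Each library with IL-4 stood above both basal libraries, and in the order of means of 40.8 ± 7.83, 186 ± 111, 292 ± 7.30 and 307 ± 76.0 (SD, n = 2 each) the 24 h libraries overlapped those of 6 h and the higher one of 1 h, and 1 and 6 h were apart. The log2 fold change of tags + 1 was 2.04 ± 0.58 (SE) at 1 h, 2.82 at 6 h and 2.87 at 24 h, with limma adjusted p of 0.0363, 0.0096 and 0.0166. It was the only member called at 1 h, where 1.37% of all regions were called higher and 8.36% lower. The change stayed between 1.40 and 2.68 at 1 h, 2.63 and 3.02 at 6 h, and 2.62 and 3.13 at 24 h with any one library left out. Still, the calls at all 3 times were lost without basal replicate 1 or 2 or 6 h replicate 1 or 2, and those at 1 and 24 h also without 24 h replicate 1 or 2.

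At 6 h, 4 of the 29 members were called higher and none lower, against 2.67% and 2.46% of all regions, and at 24 h 3 were called higher and none lower, against 1.13% and 0.327%. The members called at 6 h were +3.3 kb, in an exon of Egr2, +7.0 kb, just past the 3′ end of the gene, +93.7 kb and +98.5 kb, and those called at 24 h were +7.0, +93.7 and +98.5 kb. These counts rest on single libraries. At 1 h the count became 3 without 1 h replicate 1, 5 without 1 h replicate 2, and 0 without basal replicate 1 or 2, 6 h replicate 1 or 2, or 24 h replicate 1 or 2. At 6 h it became 10 without either 1 h library and 0 without basal replicate 2, 6 h replicate 1 or 6 h replicate 2. At 24 h it became 2 without basal replicate 1, 0 if basal replicate 2, 6 h replicate 1 or 2, or 24 h replicate 1 or 2 was left out, and 7 without either 1 h library.

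Across the members as a group, the median log2 fold change was 0.66 at 1 h, 1.05 at 6 h and 0.69 at 24 h, while over all regions it was −0.63, −0.14 and −0.22. Of the 29, 20, 21 and 24 had a positive change at the 3 times. At an unadjusted p under 0.05 the numbers were 6, 12 and 9. Since the median over all regions lay below 0, a scaling by median ratios raised each change, to 2.84, 3.02 and 3.18 at +93.7 kb. Summed over the C57 regions of the locus, H3K27ac at 24 h was 1.54 times the basal sum, or 1.92 times with that scaling.

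Around the start of Egr2, H3K27ac was low before IL-4. The region at −0.1 kb, which covers the first start site, had 7.46 and 5.70 tags at basal, 21.64 and 9.64 at 1 h, 21.56 and 20.08 at 6 h, and 37.35 and 34.13 at 24 h. Every IL-4 library exceeded both basal ones, and the 1 and 6 h libraries overlapped, yet the log2 fold changes of 1.04, 1.53 and 2.29 ± 0.58 did not pass the test, with adjusted p = 0.056 at 24 h by limma. At +0.7 kb, in an intron, the values were 47.49 and 30.66 at basal, 139.14 and 46.82 at 1 h, 135.54 and 169.18 at 6 h, and 176.56 and 127.32 at 24 h. None of the changes of 1.06, 1.96 and 1.95 was called (limma adjusted p = 0.225, 0.0622 and 0.107). The lower 1 h library lay within the basal range there, and every other IL-4 library lay above it. These windows are 1000 bp wide, and neighbors from −0.1 to +2.3 kb overlap. So do +13.6 with +14.2 kb, +62.3 with +63.2 kb and +97.9 with +98.5 kb. The values of windows that overlap share reads.

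Further into the gene the acetylation was higher. At +2.3 kb, next to the start of the transcripts Egr2-201 and Egr2-202, H3K27ac was 146.54 and 105.53 tags at basal, 346.31 and 72.29 at 1 h, 370.42 and 228.81 at 6 h, and 222.39 and 143.73 at 24 h. The lower 1 h library fell below both basal libraries and the 24 h library of replicate 2 lay within their range, and the log2 fold changes of 0.35, 1.22 and 0.52 were not called. At +3.3 kb the values were 29.17 and 22.82 at basal, 335.49 and 44.41 at 1 h, 315.74 and 202.65 at 6 h, and 236.82 and 141.76 at 24 h. All IL-4 libraries exceeded the basal ones at that exon, with changes of 2.21, 3.24 ± 0.72 and 2.78, of which the one at 6 h passed the test (adjusted p = 0.058, 0.0155 and 0.062, limma). Between them, +1.5 kb changed by 0.66, 1.38 and 1.36 and was not called.

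At +7.0 kb, H3K27ac was low throughout, at 4.07 and 2.14 tags at basal, 15.46 and 5.51 at 1 h, 18.48 and 17.65 at 6 h, and 22.92 and 23.63 at 24 h. The groups did not overlap in any pairing with basal, and the log2 fold change was 1.38, 2.26 and 2.60, called at 6 and 24 h (limma adjusted p = 0.0402 and 0.0404). At +98.5 kb the values were 30.53 and 16.40 at basal, 107.45 and 34.42 at 1 h, 107.04 and 117.45 at 6 h, and 168.92 and 132.57 at 24 h. This neighbor of +93.7 kb also separated completely from basal, with changes of 1.40, 2.27 and 2.69 ± 0.60 and adjusted p of 0.0354 at 6 h and 0.0310 at 24 h.

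A group of strongly acetylated intergenic regions between +60.0 and +63.2 kb carried H3K27ac already in basal cells. H3K27ac at +60.0 kb was 314.11 and 236.02 tags at basal, 513.29 and 162.82 at 1 h, 498.25 and 471.62 at 6 h, and 407.44 and 267.12 at 24 h. At +61.2 kb it was 445.05 and 215.34, 580.54 and 140.45, 596.82 and 466.15, and 522.88 and 288.12, and at +63.2 kb 151.29 and 156.87, 249.69 and 85.02, 277.23 and 278.11, and 239.37 and 162.76. Both 6 h libraries were above both basal ones at all 3, while the lower 1 h library was below both. At +62.3 kb, 105.16 and 79.15 tags at basal compared with 228.81 and 88.12 at 1 h, 271.84 and 334.09 at 6 h, and 207.11 and 133.23 at 24 h, so that 6 and 24 h were apart from basal. None of these 4 regions was called at any time. One intronic region of the long noncoding RNA gene Gm32364, +44.6 kb, ran the other way, with 84.13 and 111.24 tags at basal, 28.6 and 27.88 at 1 h, 25.41 and 37.73 at 6 h, and 53.48 and 91.88 at 24 h. Both the 1 and 6 h libraries were below the basal range and the 24 h libraries reached into it, but with log2 fold changes of −1.74, −1.61 and −0.46 and limma adjusted p of 0.0511, 0.0955 and 0.67 none was called. Upstream of the gene, the 7 regions from −96.1 to −16.6 kb had at most 20.68 tags in any C57 library.

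**Figure D1:**
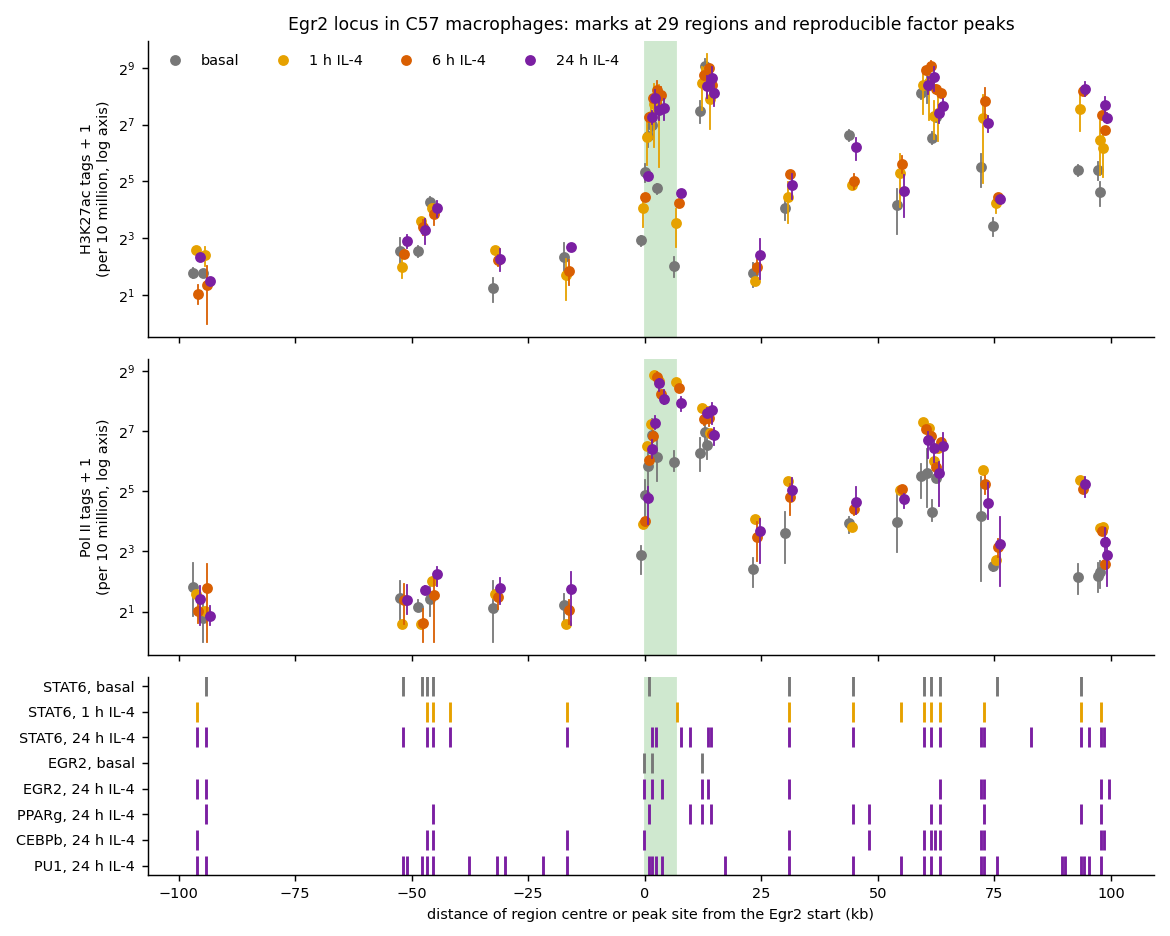
H3K27ac (top) and Pol II (middle) in C57 BMDMs at each region of the Egr2 locus, as log2 of mean normalized tags + 1 against distance from the Egr2 start in kb, with vertical lines for the range of the libraries at basal, 1, 6 and 24 h of IL-4, and C57 factor peaks as ticks (bottom); the green band is the Egr2 gene. The 7 upstream regions have little H3K27ac, and +93.7 kb changes from a basal mean of 40.8 to a 24 h mean of 307 tags.

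Pol II rose at +93.7 kb and over the Egr2 gene. At +93.7 kb, Pol II was 4.99, 4.01, 2.68 and 2.03 tags in the 4 basal libraries, 40.62 in the single 1 h library, 31.76 and 33.15 at 6 h, and 43.35, 39.59 and 26.94 at 24 h. All libraries with IL-4 were more than 20 tags above the basal ones and overlapped among themselves. The log2 fold change was 2.97 ± 0.46 at 6 h and 3.11 ± 0.40 at 24 h (limma adjusted p = 0.0072 and 0.0012). The 24 h call remained without any one library, while the 6 h call was lost without 6 h replicate 1 or 2. With 1 library, the 1 h value has no test, and it was 9.40 times the basal mean on the scale of tags + 1.

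On the gene itself, Pol II was highest over the second set of start sites and rose at +2.3, +3.3 and +7.0 kb. At +2.3 kb it was 169.72, 105.12, 68.06 and 123.54 tags at basal, 460.53 at 1 h, 397.55 and 494.83 at 6 h, and 421.51, 409.58 and 319.37 at 24 h, in which the log2 fold change was 1.99 at 6 h and 1.77 at 24 h (adjusted p = 0.0327 and 0.0282, limma). At +3.3 kb it was 119.8, 67.41, 39.66 and 50.63 at basal, 405.19 at 1 h, 313.77 and 287.63 at 6 h, and 327.47, 237.56 and 244.98 at 24 h, with changes of 2.22 and 2.05 (adjusted p = 0.0245 and 0.0166, limma). At +7.0 kb, past the 3′ end, it was 80.49, 55.37, 62.17 and 49.62 at basal, 391.48 at 1 h, 359.22 and 327.12 at 6 h, and 251.44, 281.24 and 201.37 at 24 h, with changes of 2.47 and 1.98 (adjusted p = 0.0051 and 0.0082, limma). In all 3 regions no basal library reached any library with IL-4. At +7.0 kb Pol II was highest at 1 h, lower in both 6 h libraries and lower again in every 24 h library, an order of levels that rests on 1 library at 1 h. The 3 calls at 6 h were lost without 6 h replicate 1 or 2 and those at 24 h without 24 h replicate 1 or 2. At +2.3 kb both calls were also lost without basal replicate 2, 3 or 4 and the 6 h call without 24 h replicate 1, and at +3.3 kb the 6 h call was lost without basal replicate 2, 3 or 4 and the 24 h call without basal replicate 3 or 4.

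Near the first start site Pol II was sparser. At −0.1 kb it was 6.24, 7.22, 3.75 and 8.10 tags at basal, 14.22 at 1 h, 16.43 and 14.14 at 6 h, and 34.01, 14.11 and 30.78 at 24 h. At +0.7 kb it was 38.69, 40.12, 16.61 and 18.23 at basal, 88.86 at 1 h, 59.69 and 69.71 at 6 h, and 102.71, 68.26 and 82.09 at 24 h. Basal libraries were below every IL-4 library at both, and the IL-4 times overlapped each other. Neither region was called, with log2 fold changes of 1.19 and 1.85 at −0.1 kb (limma adjusted p = 0.39 and 0.0628) and of 1.26 and 1.63 at +0.7 kb (limma adjusted p = 0.24 and 0.0612). At 1 h the single library stood at 6.24 times the basal mean at +7.0 kb, 5.77 times at +3.3 kb, 3.92 times at +2.3 kb, 3.46 times at +60.0 kb and 2.08 times at −0.1 kb, all of tags + 1, and at 0.92 times at +44.6 kb.

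In all, 4 members were called higher for Pol II and none lower at 6 h, where 0.428% of all regions were higher and 0.137% lower, and the same 4 at 24 h, where the shares were 0.503% and 0.174%. These were +2.3, +3.3, +7.0 and +93.7 kb. Between +60.0 and +63.2 kb, Pol II was 26.33 to 59.28 tags in the basal libraries and 67.98 to 158.42 with IL-4 at +60.0 kb, with no overlap, and 38.48 to 50.38 and 46.17 to 121.38 at +63.2 kb, where a 24 h library lay in the basal range, and neither was called. Another 12 of the 29 members were below 0.05 at each time before adjustment. The median log2 fold change of the members was 1.18 at 6 h and 0.96 at 24 h, with 24 and 28 of 29 positive, and over all regions it was −0.02 at both. The 6 h count became 8 without basal replicate 1, 2 without basal replicate 2, 3 or 4, and 0 without 6 h replicate 1 or 2. The 24 h count became 9 without basal replicate 1, 2 without basal replicate 3 or 4, and 1 without 24 h replicate 1 or 2. Pol II at +98.5 kb, where H3K27ac rose, was 2.41 to 13.2 tags with changes of 0.30 and 0.47 and was not called.

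**Figure D2:**
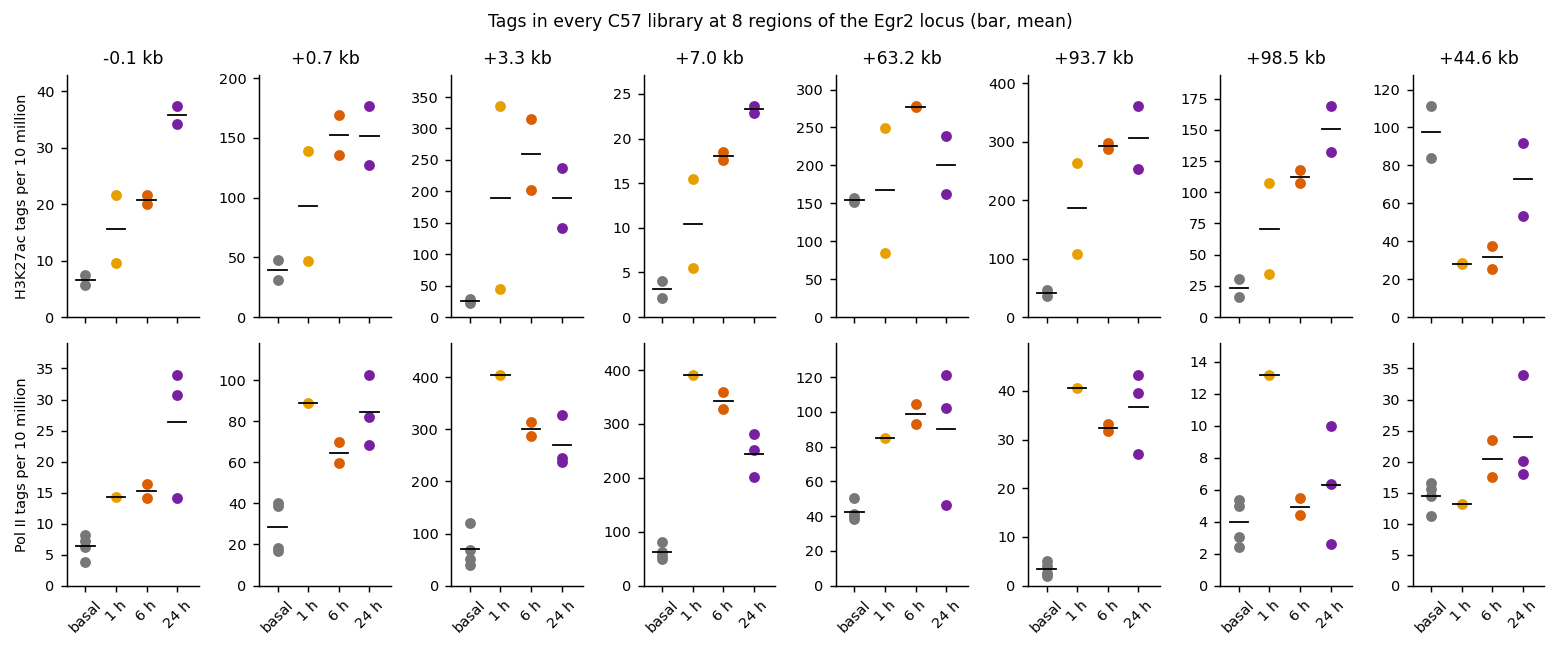
Normalized tags of H3K27ac (top) and Pol II (bottom) in every C57 library at 8 regions of the Egr2 locus under basal conditions and after 1, 6 and 24 h of IL-4, with points for libraries and a bar for the mean. At +93.7 kb all libraries with IL-4 lie above the basal ones for both measurements, whereas at +44.6 kb H3K27ac of the 1 and 6 h libraries lies below basal.

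The response at +93.7 kb was present in each strain. H3K27ac went from 35.28 and 47.06 tags at basal to 359.9 and 255.96 at 24 h in C57, from 44.09 and 50.04 to 458.58 and 209.13 in BALB. The values went from 51.53 and 77 to 469.42 and 302.81 in NOD, from 39.48 and 99.44 to 407.43 and 245.28 in PWK, and from 46.16 and 67.17 to 464.61 and 201.38 in SPRET. No basal library of any strain reached any 24 h library of that strain. The log2 fold changes were 2.87 ± 0.39, 2.70 ± 0.74, 2.56 ± 0.47, 2.31 ± 0.52 and 2.44 ± 0.41 in that order of strains. Limma called those of BALB (adjusted p = 0.0186) and SPRET (0.0062) but not those of C57, NOD and PWK (0.106, 0.0967 and 0.0670). The call in BALB remained without 24 h replicate 2, the library that stood apart (3.26), and was lost without basal replicate 1 (2.61) or 2 (2.78). That in SPRET was lost without any one of its 4 libraries (1.84 to 3.04). The C57 values come from the same libraries as the time course, in which the residual spread is shared over more libraries. Each strain has its own table of regions, normalized separately, so values stand side by side, matched by centers within 500 bp, with no test between strains.

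Pol II also lay higher at 24 h in each strain at +93.7 kb. It was 4.99, 4.01, 2.68 and 3.04 tags at basal and 44.02, 39.14 and 26.94 at 24 h in C57, 4.47, 3.56 and 10.94 and then 46.89 and 35.71 in BALB, and 4.54 and 4.11 and then 45.79 and 41.84 in NOD. The libraries had 3.53, 10.49 and 14.4 and then 42.42, 48.49 and 49.6 in PWK, and 5.81, 5.33 and 9.24 and then 38.87, 26.15 and 24.93 in SPRET. Basal and 24 h libraries were apart in all 5 strains. The log2 fold changes of 3.01, 2.65, 3.07, 2.36 and 2.00 (SE 0.44, 0.65, 0.42, 0.43 and 0.35) were called in C57, BALB, PWK and SPRET (limma adjusted p = 0.0101, 0.0132, 0.0130 and 0.0245) and not in NOD (0.161), which has 2 libraries per group. The calls in BALB and SPRET were lost without any one library, with changes of 2.38 to 3.07 and 1.80 to 2.21. That in PWK was lost without 24 h replicate 2 or 3 or basal replicate 2 or 3, and that in C57 without 24 h replicate 1 or 2.

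At the first start of Egr2 the strains stood at different levels. Mean H3K27ac at −0.1 kb went from 6.58 tags at basal to 35.7 at 24 h in C57, from 4.52 to 19.7 in BALB, from 3.69 to 23.5 in NOD, from 20.6 to 51.1 in PWK, and from 29.3 to 92.5 in SPRET. The fold changes were 2.29, 1.92, 2.39, 1.29 and 1.82 on the log2 scale, and limma called that of BALB alone (adjusted p = 0.0386, against 0.117, 0.204, 0.412 and 0.0698), a call lost without BALB 24 h replicate 1 or 2 or basal replicate 1. Pol II there had changes of 2.02, 2.23, 1.30, 2.15 and 1.53, called in PWK (11.4 to 52.6 tags, adjusted p = 0.0080) and SPRET (14.9 to 45.4 tags, adjusted p = 0.0328). At +0.7 kb the H3K27ac changes were 1.95, 1.37, 1.52, 1.49 and 1.20, none of them called, and the Pol II changes were 1.63, 2.08, 1.33, 1.57 and 1.20, called in PWK and SPRET (limma adjusted p = 0.0134 and 0.0479).

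Only the PWK and SPRET tables had a match to +7.0 kb. Pol II there rose from a mean of 95.6 to 396 tags in PWK (log2 fold change 2.07, limma adjusted p = 0.0013) and from 117 to 301 in SPRET (1.39, 0.0209). H3K27ac there went from 8.21 to 24.0 and from 5.43 to 30.1 without passing the test. At +98.5 kb, H3K27ac changed by 2.67, 1.90, 2.36 and 1.64 in C57, BALB, NOD and PWK, none called, and Pol II rose in PWK by 2.21 (adjusted p = 0.0377, limma). In the group from +60.0 to +63.2 kb, mean H3K27ac at +60.0 kb went from 276 to 338 tags in C57, from 236 to 363 in BALB, from 302 to 403 in NOD, from 226 to 313 in PWK, and from 255 to 523 in SPRET between basal and 24 h. At +63.2 kb these were 151 and 196, 170 and 237, 183 and 279, 146 and 238, and 148 and 270, in the same order. None of these was called. At +60.0 kb basal and 24 h libraries did not overlap in SPRET (228.25 and 282.5 against 673.55 and 372.61) and NOD (317.52 and 286.55 against 470.14 and 334.89). At +63.2 kb they did not overlap in C57 (147.22 and 154.02 against 230.88 and 160.79) and NOD (199.49 and 167.49 against 335.61 and 222.89). In the other strains they overlapped at these regions. Mean Pol II at +60.0 kb went from 45.03 to 103 tags in C57, from 39.7 to 111 in BALB, from 49.8 to 114 in NOD, from 44.0 to 119 in PWK and from 35.4 to 82.3 in SPRET. At +61.2 kb it went from 27.9 to 115 in BALB and from 33.7 to 115 in PWK, and limma called PWK at both regions and no other strain at either. The region at +44.6 kb was matched in C57, BALB and NOD only, with means of 98.0 and 73.1, 83.6 and 59.5, and 107 and 78.9.

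**Figure D3:**
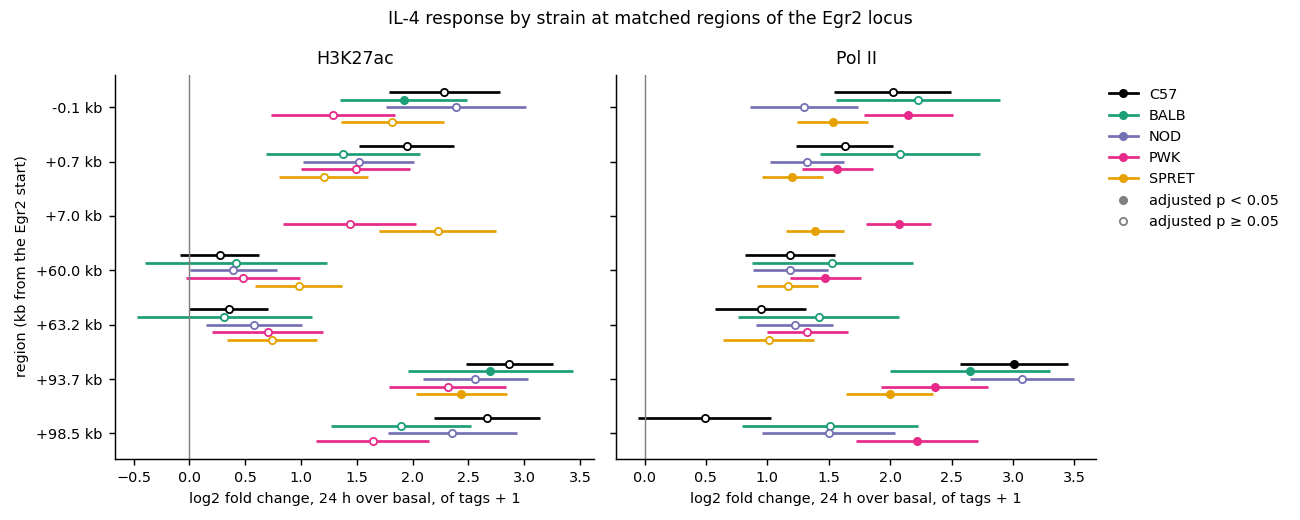
Log2 fold change of normalized tags + 1, 24 h of IL-4 over basal, with its SE, for H3K27ac (left) and Pol II (right) at 7 regions of the Egr2 locus in the 5 strains; filled points have a limma adjusted p under 0.05. The H3K27ac changes at +93.7 kb lie between 2.31 and 2.87 and the Pol II changes between 2.00 and 3.07.

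Over all members, limma called 0, 5, 0, 0 and 2 for H3K27ac in C57, BALB, NOD, PWK and SPRET, where 0%, 2.26%, 0.0566%, 0.535% and 1.19% of all regions of these tables were called in either direction. The 5 in BALB were −0.1, +82.8, +90.1, +93.7 and +97.8 kb and the 2 in SPRET were +3.7 and +93.7 kb, of which those outside the rule for named regions were singled out after their values were seen. In BALB, H3K27ac was 0.73 and 1.79 tags at basal and 7.53 and 14.29 at 24 h at +82.8 kb, 10.29 and 17.28 and then 91.87 and 49.07 at +90.1 kb, and 28.66 and 31.58 and then 248.49 and 87.18 at +97.8 kb. In SPRET it was 41.89 and 112.6 and then 426.7 and 213.23 at +3.7 kb. At an unadjusted p under 0.05 the numbers were 8, 7, 11, 8 and 13, edgeR called 0, 3, 0, 1 and 5, and DESeq2 6, 3, 4, 1 and 2. The fold rule took 8, 8, 9, 6 and 6 members, all higher, against 11%, 7.97%, 8.38%, 6.12% and 3.58% of all regions in either direction. Higher regions alone were 2344 of 67742, 1532 of 54022, 2231 of 68932, 1867 of 60175 and 1447 of 54755. The median log2 fold change of the members was 0.57, 1.03, 1.08, 0.65 and 0.95, and that of all regions −0.28, −0.30, −0.20, −0.18 and −0.09. Of the 7 limma calls over the strains, 4 were left without BALB 24 h replicate 1 or BALB basal replicate 2 and 2 without BALB basal replicate 1, and there were 11 and 12 without NOD basal replicate 1 and 2.

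For Pol II, limma called 3, 1, 0, 12 and 7 members in the same order of strains, all higher. Of all regions, 0.319%, 0.707%, 0%, 1.72% and 1.05% were called in either direction. In NOD, where limma called 0, DESeq2 called 2 and edgeR 0, and 15 members had an unadjusted p under 0.05. The fold rule took 8, 14, 7, 14 and 6 members, all higher, against 3.23%, 6.84%, 3.60%, 3.59% and 2.34% of all regions in either direction. Higher regions alone were 1063 of 67742, 3194 of 54022, 1619 of 68932, 1601 of 60175 and 843 of 54755. The member medians of the log2 fold change were 0.95, 1.53, 1.23, 1.47 and 1.10, against −0.03, 0.32, −0.02, −0.03 and −0.10 over all regions. With the replicate number as a block, for the strains in which the numbers were taken to pair the Pol II libraries, the calls were 5 in C57, 16 in PWK and 13 in SPRET. The total of 23 became 14 without PWK 24 h replicate 2 or PWK basal replicate 3 and 13 without PWK 24 h replicate 3.

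The methylation marks changed at few members. H3K4me2 fell in C57 at +3.3 kb, from a mean of 151 to 39.4 tags (log2 fold change −1.87, limma adjusted p = 0.0079), the exon where H3K27ac and Pol II rose. It rose in PWK at +7.0 kb, from 10.4 to 53.1 (2.38, 0.00017), and at the neighboring +7.6 kb (2.23, 0.0023). The median of all regions in C57 was −0.69 for this mark, and the median ratios of the libraries were 1.29 and 1.27 at basal and 0.97 and 0.65 at 24 h. Scaled by median ratios, the values became −1.19 in C57 and 2.54 and 2.39 in PWK and all 3 calls were lost, and that in C57 was also lost without 24 h replicate 2 or basal replicate 1 or 2. Over the 5 strains 0.159% of regions were called for H3K4me2. The total of 3 became 13 without C57 24 h replicate 1 or BALB 24 h replicate 1, 9 without NOD basal replicate 1 or SPRET basal replicate 1, 5 without SPRET 24 h replicate 2, and 1 without PWK 24 h replicate 1 or 2 or PWK basal replicate 1. Limma called no member for H3K4me3, a promoter mark, and 0.0115% of all regions, while edgeR called 1, 0, 1, 0 and 2 members and DESeq2 0, and 8, 3, 3, 5 and 7 members had an unadjusted p under 0.05.

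STAT6 bound the locus at many sites, most of them downstream. C57 BMDMs had 13 STAT6 peaks in the window at basal, 15 at 1 h, 12 at 6 h and 25 at 24 h. The whole lists held 30589, 24376, 23884 and 39537 peaks at these times. Between basal and 24 h the number went from 3 to 7 in BALB, 7 to 11 in NOD, 5 to 24 in PWK and 14 to 19 in SPRET. The whole lists went from 11486 to 16432, 20653 to 20619, 14022 to 38679 and 28212 to 35742 in the same order. The peak at +93.61 kb (chr10:67628854-67629327), which holds the STAT6 match printed above, had a deposited count of 29 at basal, 497 at 1 h, 330 at 6 h and 246 at 24 h in C57. It ranked in the top 0.435% of 24376 peaks at 1 h, the top 0.955% at 6 h and the top 0.377% of 39537 at 24 h. The count at 24 h was 138 in BALB, which had no basal peak there, and went from 22 to 163 in NOD, from 24 to 291 in PWK and from 21 to 286 in SPRET. These 24 h peaks were in the top 0.225 to 0.572% of each list, whereas the basal peaks ranked between 54.5 and 66.0%. These are 1 value per list with no replicate error, and the scaling of the counts is not given in the sources used here.

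Other STAT6 peaks were also strong at 1 h. At +63.37 kb the C57 counts were 76, 423, 308 and 184 at basal, 1, 6 and 24 h, at +59.91 kb 53, 306, 211 and 115, and at +97.89 kb 233, 162 and 87 from 1 h on with no basal peak. In each of the 3, and at +93.61 kb, the count was highest at 1 h and lowest at 24 h among the times with IL-4. Ranks within the lists gave another order. They were 1.36, 1.33 and 1.06% from the top at +63.37 kb at 1, 6 and 24 h. At +59.91 kb they were 5.74, 5.92 and 4.50%, and at +97.89 kb 12.9, 13.6 and 9.72%. Each site thus ranked best at 24 h, and a change in binding between these times was not tested. A STAT6 peak at the first Egr2 start was listed once, in PWK at 24 h. Of the 29 regions of the time course, 13 held a C57 STAT6 peak of 1 h, and their median H3K27ac change at 1 h was 0.25, with 8 of 13 positive, against 0.73 and 12 of 16 for the members without one. Of the regions at these 4 strong STAT6 sites, +93.7 kb was called for H3K27ac at 1 h and +60.0, +63.2 and +97.9 kb were not.

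The other factors differed from site to site. The +93.61 kb site was in 29 of the 54 lists, 11 of STAT6, 8 of PPARγ and 10 of PU.1, with none of EGR2 or CEBPβ. PPARγ counts there at 24 h were 88.4 in C57, 65.8 in BALB, 156.8 in NOD, 67.1 in PWK and 77.5 in SPRET, and at basal 18.6 in NOD, 20.5 in PWK and 38.3 in SPRET with no peak in C57 or BALB. The site in most lists was +63.37 kb, in 41 of 54, followed by −45.46 and +59.91 kb in 35 each and +97.89 kb in 32, and the Egr2 start was in 26. Within the window PPARγ peaks went from 2 to 13 in C57, 0 to 5 in BALB, 3 to 13 in NOD, 6 to 9 in PWK and 6 to 5 in SPRET between basal and 24 h. The whole PPARγ lists went from 7627 to 39088, 6524 to 23578, 12529 to 40426, 18402 to 46415 and 19684 to 18487. CEBPβ peaks went from 7 to 15, 5 to 12, 5 to 12, 11 to 14 and 11 to 16 in the same order of strains. The whole CEBPβ lists went from 18043 to 37499, 13722 to 35329, 19060 to 45552, 32353 to 39849 and 31109 to 29217. PU.1 lists held 25 to 34 peaks in the window and 73028 to 101317 in all.

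EGR2 was found at its own gene. A peak at the Egr2 start (chr10:67535190-67535603) was in 12 of 12 EGR2 lists, a second at +1.56 kb in 11 and another in Ado at +12.29 kb in 10. The deposited count at the start was 101 at basal, 153 at 1 h, 187 at 6 h and 390 at 24 h in C57. From basal to 24 h it went from 145.1 to 440.9 in BALB, 196.7 to 426.8 in NOD, 23.7 to 78.4 in PWK and 69.9 to 450.2 in SPRET. The 24 h peak ranked in the top 2.2% of 29407 in C57, 0.943% in BALB and 0.322% in SPRET. The window held 3, 5, 4 and 13 EGR2 peaks at basal, 1, 6 and 24 h in C57. The whole lists held 8437, 13562, 13072 and 29407 peaks at these times. Between basal and 24 h the number went from 8 to 10 in BALB, 8 to 4 in NOD, 2 to 5 in PWK and 3 to 11 in SPRET. The whole lists went from 28842 to 37104, 25341 to 16604, 6201 to 14919 and 12301 to 39458 in the same order. Whether the locus changed beyond the size of the lists was not tested.

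By library, EGR2 tags at the start in C57 were 62.75 and 151.76 at basal, 29.81 and 96.44 at 1 h, 115.22 and 156.36 at 6 h, and 307.9 and 217.93 at 24 h. The 24 h libraries stood above the other 6, while basal, 1 and 6 h overlapped. At +1.4 kb the values were 34.19 and 76.55, 77.68 and 127.3, 143.16 and 133.95, and 89.77 and 111.36, where the 6 h libraries were highest and the basal ones lowest. The intronic site at +3.7 kb had 13.11 and 16.12, 9.03 and 29.9, 8.73 and 29.54, and 42.64 and 38.4. There, only the 24 h libraries cleared the rest.

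Of the distal EGR2 sites, +63.4 kb had 30.91 and 22.83 tags at basal, 7.23 and 37.61 at 1 h, 8.73 and 65.19 at 6 h, and 69.12 and 45.12 at 24 h. At +72.3 kb these were 21.07 and 30.89, 2.71 and 32.79, 19.2 and 63.15, and 72.26 and 38.4, and at +97.9 kb 20.61 and 9.4, 19.87 and 27, 20.95 and 48.38, and 40.39 and 58.56. The replicates at 6 h differed by more than 2 times at each of these sites, and the 24 h libraries exceeded both basal libraries. In Ado, +12.4 kb had 47.3 and 55.06 tags at basal and 87.07 and 75.84 at 24 h, with 38.41 to 90.15 between. The +13.6, +31 and +72.8 kb sites ranged over 9.03 to 34.92, 1.81 to 24.96 and 5.24 to 54.72 tags, and −96.0, −94.1 and +99.5 kb over 0 to 30.89.

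Limma called none of the 13 sites at any time, and 0% of all sites of the table, so the separation at 24 h did not pass the test. At an unadjusted p under 0.05 there were 0, 1 and 1 at 1, 6 and 24 h, and edgeR and DESeq2 called 0, while without 1 h replicate 2 limma called 2. The member medians on the log2 scale were −0.61, 0.23 and 0.96, with 4, 9 and 13 of 13 positive, close to those of all sites at −0.59, 0.17 and 0.66.

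**Figure D4:**
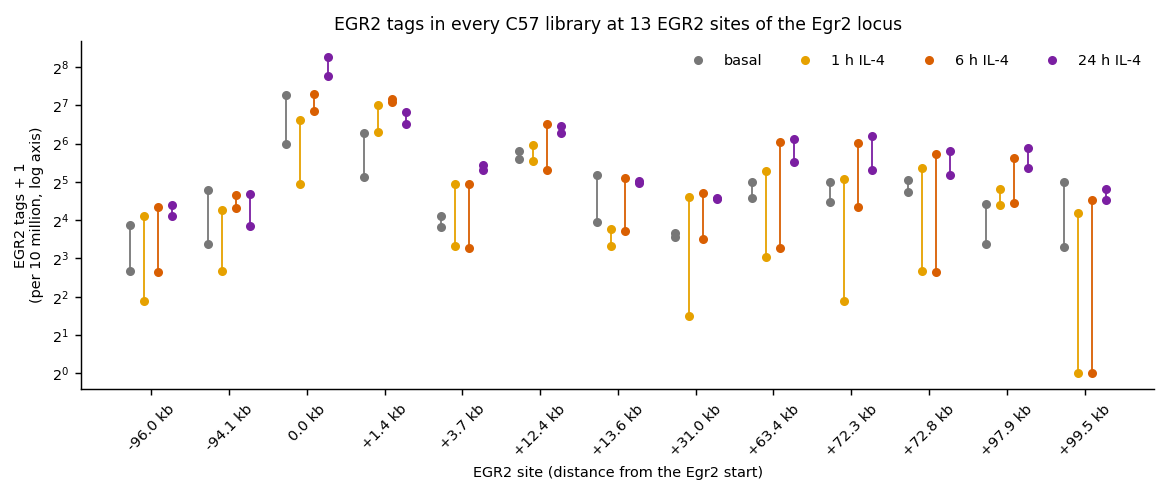
EGR2 ChIP-seq tags + 1 on a log axis at the 13 EGR2 sites of the locus, one point per C57 library, under basal conditions and after 1, 6 and 24 h of IL-4. The site at the Egr2 start holds the most tags at 24 h, 307.9 and 217.93.

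The genotype experiment measured 3 EGR2-bound sites of the locus, at +3.7 kb in an Egr2 intron and at +63.4 and +97.9 kb. Its deposited values cover only peaks that the authors took as EGR2 peaks induced by 24 h of IL-4. Shares of all sites below refer to that selected set. The EGR2 sites at the Egr2 start, +1.4 and +12.4 kb were not in it. At +3.7 kb, H3K27ac was 50.27 and 38.01 tags at basal and 152.77 and 197.82 at 24 h in Egr2 fl/fl, and 38.11 and 27.47 at basal and 161.04 and 143.36 at 24 h in LyzM-Cre Egr2 fl/fl. It rose in both, by 1.97 and 2.2 on the log2 scale (limma adjusted p = 3.5e-05 and 1.05e-05). At +97.9 kb the values were 38.34 and 25.11 and then 99.5 and 134.87 in Egr2 fl/fl, and 25.07 and 21.86 and then 165.2 and 145.1 in LyzM-Cre Egr2 fl/fl, rises of 1.87 and 2.67 (limma adjusted p = 0.0001 and 2.6e-06). At +63.4 kb they were 207.06 and 190.05 and then 236.19 and 265.9, against 190.55 and 169.28 and then 303.39 and 311.67. The change of 0.34 in Egr2 fl/fl was not called (adjusted p = 0.214, limma), and there was a rise of 0.77 in LyzM-Cre Egr2 fl/fl (adjusted p = 0.0081, limma), a call lost without LyzM-Cre 24 h replicate 2 or basal replicate 2. Of all sites, 28.1% were called for IL-4 in Egr2 fl/fl and 18.5% in LyzM-Cre Egr2 fl/fl.

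Between genotypes at 24 h the 3 sites differed by −0.19, 0.29 and 0.42 at +3.7, +63.4 and +97.9 kb (LyzM-Cre over fl/fl), with limma adjusted p of 0.63, 0.28 and 0.29. None was called, and none had an unadjusted p under 0.05, whereas 24.7% of all 4677 sites were called, 66 higher and 1087 lower in LyzM-Cre. At basal they differed by −0.42, −0.14 and −0.39 with no call, against 0.192% of all sites, and the test of the difference between the IL-4 responses gave 0.23, 0.44 and 0.81 (limma adjusted p = 0.84, 0.52 and 0.38) against 0% of all sites. The median over all sites was −0.50 for the genotype at 24 h. Under a median-ratio scaling, +63.4 and +97.9 kb were called higher in LyzM-Cre Egr2 fl/fl at 24 h, by 0.83 and 0.95, +3.7 kb changed sign to 0.34, and the IL-4 change at +63.4 kb in Egr2 fl/fl became −0.17. The direction between genotypes at +3.7 kb and the IL-4 direction at +63.4 kb in Egr2 fl/fl therefore depend on how libraries are scaled.

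STAT6 binding was called higher with IL-4 at both distal sites in Egr2 fl/fl, in a table where the median of all sites was 1.04. At +63.4 kb it was 10.31 and 3.59 tags at basal and 22.41 and 44.26 at 24 h, a log2 fold change of 2.18 (limma adjusted p = 0.0143). At +97.9 kb it was 2.06 and 1.2 and then 21.16 and 15.05, a change of 2.86 (limma adjusted p = 0.0169). In LyzM-Cre Egr2 fl/fl the values were 12.26 and 11.01 and then 29.9 and 33.79 at +63.4 kb, and 2.23 and 0 and then 12.37 and 4.51 at +97.9 kb, with changes of 1.38 and 2.26 that were not called (adjusted p = 0.33 and 0.19). The groups did not overlap in either genotype. At +3.7 kb, STAT6 had 1.2 to 5.63 tags in all 8 libraries, with IL-4 changes of 0.64 and 0.34 and no call. Of all sites, 11.8% were called for IL-4 in Egr2 fl/fl, 1.20% in LyzM-Cre Egr2 fl/fl and 0.00713% over the 3 contrasts of genotype, in which no member was called and none had an unadjusted p under 0.05. The median ratios of the Egr2 fl/fl libraries were 0.97 and 0.66 at basal and 2.01 and 1.68 at 24 h. Scaled by these ratios, the changes became 1.07 and 1.85 and both calls were lost. The 2 STAT6 calls also became 0 without fl/fl 24 h replicate 1, fl/fl 24 h replicate 2 or fl/fl basal replicate 2.

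PPARγ at +63.4 kb was 9.12 and 7.08 tags at basal and 81.93 and 34.67 at 24 h in Egr2 fl/fl, and 14.91 and 26.29 and then 18.07 and 0 in LyzM-Cre Egr2 fl/fl. At +97.9 kb it was 20.06 and 2.02 and then 62.47 and 55.15, against 4.26 and 0 and then 6.95 and 7.75. The 24 h libraries of Egr2 fl/fl were highest at both sites, but limma called no member in any contrast and 0% of all sites. The median log2 fold change of PPARγ over all sites was −1.28 between genotypes at 24 h and 1.66 for IL-4 in Egr2 fl/fl. Median ratios at 24 h were 2.01 and 2.49 in Egr2 fl/fl and 1.02 and 1.18 in LyzM-Cre Egr2 fl/fl. Of the members, 1 had an unadjusted p under 0.05 for the genotype at 24 h and 1 for the difference between responses. H3K4me2 at +3.7 kb was 109.04 and 110.65 and then 55.85 and 79.53 in Egr2 fl/fl, and 87.41 and 105.97 and then 40.43 and 54.63 in LyzM-Cre Egr2 fl/fl. The 24 h libraries were lower in both genotypes, and no member was called, against 3.72% of all sites over the contrasts, with 3 sites at an unadjusted p under 0.05 for IL-4 in Egr2 fl/fl and 2 in LyzM-Cre Egr2 fl/fl. PU.1 at +63.4 kb was 103.67 to 147.14 tags in all 8 libraries, and no member was called for PU.1 or CEBPβ, against 4.12% and 2.07% of all sites. Pol II, with 1 library per group and so no test, went from 53.41 to 151.42 tags at +3.7 kb in Egr2 fl/fl and from 35.1 to 126.43 in LyzM-Cre Egr2 fl/fl. In the same order it went from 41.73 to 66.35 and from 57.85 to 175.68 at +63.4 kb, and from 6.68 to 12.76 and from 1.95 to 11.98 at +97.9 kb.

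**Figure D5:**
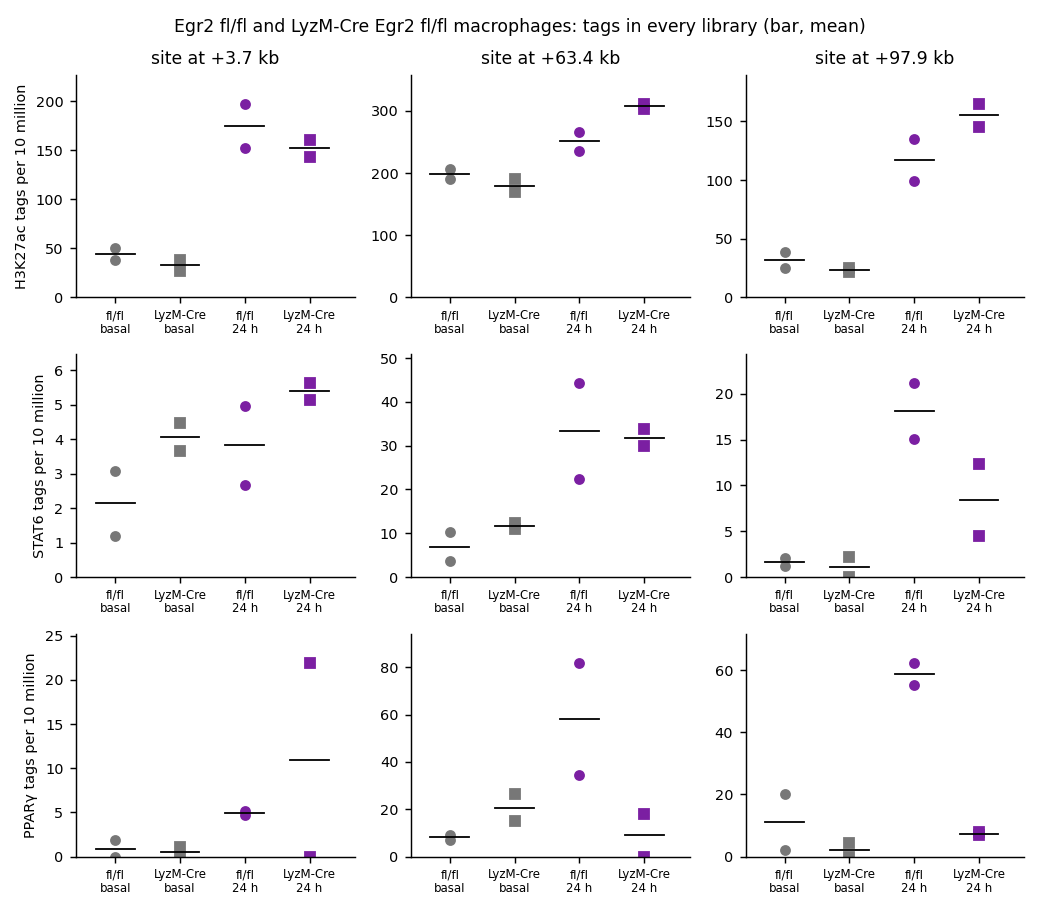
Normalized tags of H3K27ac, STAT6 and PPARγ in each library at the EGR2-bound sites +3.7, +63.4 and +97.9 kb in Egr2 fl/fl and LyzM-Cre Egr2 fl/fl BMDMs, basal and after 24 h of IL-4. H3K27ac with IL-4 is above basal in both genotypes at all 3 sites. PPARγ at +97.9 kb is 62.47 and 55.15 in Egr2 fl/fl against 6.95 and 7.75 in LyzM-Cre Egr2 fl/fl at 24 h. The median log2 fold change of PPARγ between these groups over all sites is −1.28.

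The neighboring Ado promoter (+13.6 kb) was acetylated at all times, with 637.05 and 416.42 tags of H3K27ac at basal and 526.28 and 272.37 at 24 h, and was not called. Pol II there went from a basal mean of 126 to 205 tags at 24 h, also not called. In Ado itself, +12.5 kb had 227.27 and 131.2 tags at basal and 181.41 to 519.47 with IL-4, without a call.

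Of 30 genes of the IL-4, STAT6 and EGR pathway and its known targets, 24 had a promoter region in the C57 time course. For H3K27ac, 2 were called higher and 2 lower at 1 h (1.37% and 8.36% of all regions), 4 higher at 6 h (2.67%) and 2 higher at 24 h (1.13%). For Pol II, 3 were higher at 6 h (0.428%), and 3 higher and 1 lower at 24 h (0.503% and 0.174%). Slc7a2 and Tmem26, listed as known targets, were the 2 called higher for H3K27ac at 1 and 24 h, and both were also called at 6 h. As known targets were chosen for the list, its shares of higher calls are a description only. The 2 lower of 24 at 1 h are a share close to that of all regions. They were Stat6 and Nab2, a corepressor of EGR proteins, with log2 fold changes of −1.94 and −1.87 (adjusted p = 0.046 and 0.042, limma), where the median of all regions was −0.63 and 1 library stood apart. None of the 6 genes of the receptor and its kinases was called. Among feedback genes and targets, Cish, an inhibitor of cytokine signaling, rose by 3.33 in H3K27ac at 6 h (adjusted p = 0.0055, limma), Arg1, the arginase of alternatively activated macrophages, by 2.51 (adjusted p = 0.030, limma), and Irf4, a transcription factor, by 1.53 in Pol II at 24 h (adjusted p = 0.040, limma). Egr3, a relative of Egr2, fell by 2.68 in Pol II at 24 h (adjusted p = 0.027, limma). Its Pol II mean was 11.8 tags at basal and 1.19 at 24 h (0 to 2.67), so the change rests on few reads.

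Promoters were compared with that of Egr2 over 9503 genes with an acetylated promoter region. For Egr2 this was the intronic region at +0.7 kb and not the one at −0.1 kb. Over the 8 H3K27ac and 10 Pol II libraries, the most alike were those of Slc7a2, Zfp493, Tmem26, Gpc1 and Ksr2. Their means of both Pearson correlations were 0.954, 0.953, 0.948, 0.923 and 0.923. Zfp493 encodes a zinc finger protein, Gpc1 a glypican and Ksr2 a scaffold of Ras signaling. These correlations run over few libraries that share their times, so they are a description only. Slc7a2, a cationic amino acid transporter, rose by 3.79, 5.72 and 4.90 in H3K27ac at 1, 6 and 24 h (adjusted p = 0.018, 0.0013 and 0.0065, limma), and Tmem26, a transmembrane protein, by 3.43, 5.75 and 4.89 (adjusted p = 0.019, 0.00063 and 0.0037, limma).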

How the data were processed

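Per the file headers, the labels and the methods of the study, the authors aligned reads of each strain to a genome of that strain with Bowtie2, shifted them to mm10 with MMARGE and counted tags with HOMER, and the deposited values are tags scaled to 10000000 (treated here as a signal), within 1000 bp around region centers, 300 bp for the factors of the genotypes, or the peak for EGR2. The deposited peak lists (reproducible between replicates by IDR) hold a score and a count per peak. Multiplied by the library total, 100% of 7268918 values were whole reads within 0.1. Here, log2(tags + 1) was tested with limma 3.58.1 (trend) in R 4.3.3, adjusted over each table. edgeR 4.0.16 and DESeq2 1.42.0 on recovered counts, a pseudocount of 5, a filter, median-ratio scaling, a replicate block and each library left out were alternatives. Python 3.11.15, pandas 2.3.3, numpy 2.4.6 and matplotlib 3.10.9 did the rest. Scripts were tested on simulated data.

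The members and gene lists were chosen with earlier results of these data known, and motif matches within peaks after the peaks were seen. Regions were named with values if within 1 kb of the Egr2 start, if among the 8 with most H3K27ac more than 1 kb from a gene start, if an EGR2 site, or if called by limma in the C57 time course. Other calls in the strain tables are given mostly as counts. The replicate numbers of the labels were taken to pair the strain Pol II libraries of C57, PWK and SPRET, which had 3 pairs each. Every pair's correlation of deviations was over 0.1 there (lowest 0.118, 0.201 and 0.224). Sets with 2 pairs were not taken as paired, although some also exceeded 0.1. Their correlations were 0.261 to 0.492 for strain H3K27ac and 0.250 to 0.368 for Pol II of BALB and NOD. No replicate pair was identical. 4 value columns that matched no sample were not used. The files and labels gave no batch for these libraries.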

Additional observations from a re-analysis of the deposited data

How the results depend on the processing

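Of the 111 single-region values recomputed, edgeR left 104 on the same side of the threshold and in the same direction, a pseudocount of 5 105, median-ratio scaling 82 and the replicate block 77, a filter on low values 98 of 107, DESeq2 81 of 106 and leaving out a library 598 of 760. Counts of called members moved more, and the cause was not tested. For H3K27ac in the time course, the 1 h count of 1 became 2 with a pseudocount of 5 and with edgeR, 3 with the filter and with DESeq2, 5 with scaling and 4 with the block. The 6 h count of 4 became 9 with scaling, 9 with DESeq2 and 10 with the block, and the 24 h count of 3 became 8, 7 and 8. For Pol II at 24 h, 4 became 7, 8 and 8, in the same order. Over the strains, 7 H3K27ac calls became 16 with DESeq2 and 47 with the block, 23 Pol II calls 36 and 48, and 3 H3K4me2 calls 0 with scaling, 6 with DESeq2 and 10 with the block. For H3K4me3, 0 became 1 with a pseudocount of 5, the filter or scaling, 4 with edgeR and 14 with the block. Among genotypes, 0 H3K4me2 calls became 2 with scaling or the block, and 2 factor calls 0 with scaling, 1 with DESeq2 and 4 with the block. The 13 regions with a STAT6 peak at 1 h became 8 when only the better-scoring 0.5 of each list was kept.

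The replicate numbers were taken to pair libraries only for strain Pol II in C57, PWK and SPRET. In the strain H3K27ac sets, libraries of the same number also varied together, with correlations of 0.261 to 0.492 from 2 pairs each. Whether the numbers pair libraries outside the 3 Pol II sets was not settled. The EGR2 count of 0 did not change with the block.

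With 1 library left out, the one that remains in its group is assumed to vary like the others. The counts then ran from 0 to 5 for time course H3K27ac at 1 h, 0 to 10 at 6 h and 0 to 7 at 24 h, 0 to 8 for Pol II at 6 h and 1 to 9 at 24 h, 2 to 12 for strain H3K27ac, 13 to 26 for strain Pol II, 1 to 13 for H3K4me2, 0 to 0 for H3K4me3, 0 to 2 for EGR2, and, among genotypes, 4 to 5 for H3K27ac, 0 to 1 for H3K4me2 and 0 to 2 for factors. The one H3K4me2 call appeared without fl/fl 24 h replicate 1 or 2. The log2 fold change of H3K27ac at +2.3 kb at 1 h ran from −0.77 (without 1 h replicate 1) to 1.47.

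Scaling by median ratios turned the sign of 5 values. For genotype H3K27ac these were the genotype difference at +3.7 kb at 24 h (0.34) and at +63.4 kb at basal (0.068) and the IL-4 change at +63.4 kb in Egr2 fl/fl (−0.17), and for STAT6 the IL-4 change at +3.7 kb in Egr2 fl/fl (−0.20) and in LyzM-Cre Egr2 fl/fl (−0.088). With 2 libraries in most groups, small changes at regions of few tags, such as those upstream of Egr2, were not detectable at this depth.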

Other observations

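Upstream of Egr2, a region of PWK BMDMs stood out from its matches. At −31.8 kb, H3K27ac in PWK was 333.04 and 340.61 tags at basal and 341.43 and 174.65 at 24 h, while the matched regions of C57, NOD and SPRET had means of 1.19 to 22.9 tags and BALB had no match. Pol II there in PWK was 83.94, 58.75 and 60.61 tags at basal and 68.31, 61.42 and 73.55 at 24 h, with basal and 24 h overlapping. Mean H3K4me2 in PWK was 144 tags at basal and 130 at 24 h and H3K4me3 97.4 and 91.0. PWK lists held PU.1, STAT6, PPARγ and CEBPβ peaks at the site, of which only PPARγ was listed in PWK alone. PU.1 peaks there were listed in all 5 strains, STAT6 peaks also in SPRET, and CEBPβ peaks also in BALB and SPRET. A second upstream region of PWK, −45.4 kb, had mean H3K27ac of 88.0 and 77.5 tags. The libraries of its matches had 35.26 to 49.39 tags in SPRET, 20.26 to 34.13 in NOD, 11.16 to 20.68 in C57 and 7.15 to 17.32 in BALB. The strains were not tested against each other, since their tables hold different regions, and both regions were singled out after their values were seen.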
